A study of Mus musculus with 4 samples.

Results

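The genes described here are 7 regulators and hallmarks of epithelial identity, Trp63, Ovol1, Grhl3, Cdh1, Epcam, Sfn and Perp. They were chosen by name, and a probe counted as theirs where its gene name in the array files was the symbol or an older one, such as Tacstd1 for Epcam, or where its accession mapped to the gene. Probes were found for 6 of the 7 genes, 11 of the 41174 probes of the array, while Grhl3 was not analysed here. RNA came from the maxilla, the mandible, the ilium and the femur of male C57BL/6 mice aged 35 days, with 1 array for each bone. None of these 4 groups carried a treatment or a transgene. The series asks how the jaw bones, maxilla and mandible, differ from bones of the trunk and limb, here the ilium and femur, and that contrast is followed. The bones were taken whole from the animals, per the labels' protocols, and the number of animals behind each RNA sample is not stated there.

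Epithelial cells form sheets held together by cadherin junctions and desmosomes, and they rest on a basement membrane. Trp63 encodes p63, the p53-family transcription factor that stratified epithelia such as epidermis, oral mucosa and the enamel organ depend on, and Perp and Sfn are among the genes linked to it. Ovol1 and the Grainyhead-like factors (Grhl3 here) are transcription factors that hold cells in the epithelial state, and Cdh1 (E-cadherin) and Epcam are the adhesion molecules by which epithelium is usually recognised. Bone cells and marrow are not epithelial, whereas the jaws carry teeth, gingiva and, in the maxilla, the walls of the nasal cavity.

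Values below are log2 ratios of the processed spot signal to the array's own 75th percentile, so a value of 0 is a spot as bright as that percentile. A level is compared only between bones, never between probes. Of 43379 spots that were not controls, 72.8% to 75.5% were well above background on each array, and 0 were saturated. Of the 11 probes, 10 were printed once and the Cdh1 probe 10 times. For member probes well above background the scanner program gave an error of 10.0% to 16.4% of the signal. This error covers the spot, not the animal. Each bone gave 1 RNA sample. It came from the whole bone and not from separate cell types, so fewer epithelial cells and less RNA per epithelial cell cannot be told apart. Osteoblast genes were bright in all 4 samples. The median value of 8 of them was 2.69 in the maxilla and 3.29 in the mandible, against 2.22 in the ilium and 1.46 in the femur. Bglap (osteocalcin), named after its values were seen, stood at 7.85 in the maxilla and 8.06 in the mandible. In the ilium it stood at 7.55 and in the femur at 7.30.

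On mouse build mm8, the build of the array's design, the Trp63 probes lie on chromosome 16. The first is at 25807275 to 25807334, the second spans 25780651 to 25781428 and the third is at 25782981 to 25783040. The Cdh1 probe is on chromosome 8 at 109559041 to 109559100, and the Epcam probe spans 87557958 to 87558786 on chromosome 17. The Ovol1 probes are on chromosome 19 at 5550257 to 5550316 and at 5549209 to 5549268, and the Perp probe is on chromosome 10 at 18546307 to 18546366. The second Sfn probe and the third lie on chromosome 4, at 132873160 to 132873219 and 132873361 to 132873420. The first Sfn probe carries an accession described as 14-3-3 sigma, yet the design places it on chromosome 11 at 98542759 to 98542812, so its assignment is uncertain. The exon or UTR that each probe falls in was not examined, because no annotation of mm8 was used.

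Trp63, Perp and Cdh1 were higher in the jaw bones than in the ilium and femur, by 28.1-fold to 78.8-fold. Epcam was 38.2-fold higher on average but did not pass the test, and its maxilla and mandible values lay far apart. Sfn, read from its brightest probe, differed by 1.47-fold and did not pass. Ovol1 was well above background only in the maxilla and was not tested. Of the 5 members tested, 3 were called higher and 0 lower by limma, with Benjamini-Hochberg adjustment over 20616 genes and a threshold of 0.05. Over all genes, 4.51% were called higher in the jaw and 7.25% lower. In 4 of the 5 tested members the lower jaw bone lay at least 2-fold above the higher trunk or limb bone, which held for 9.34% of all genes, with 9.82% the other way.

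**Figure D1:**
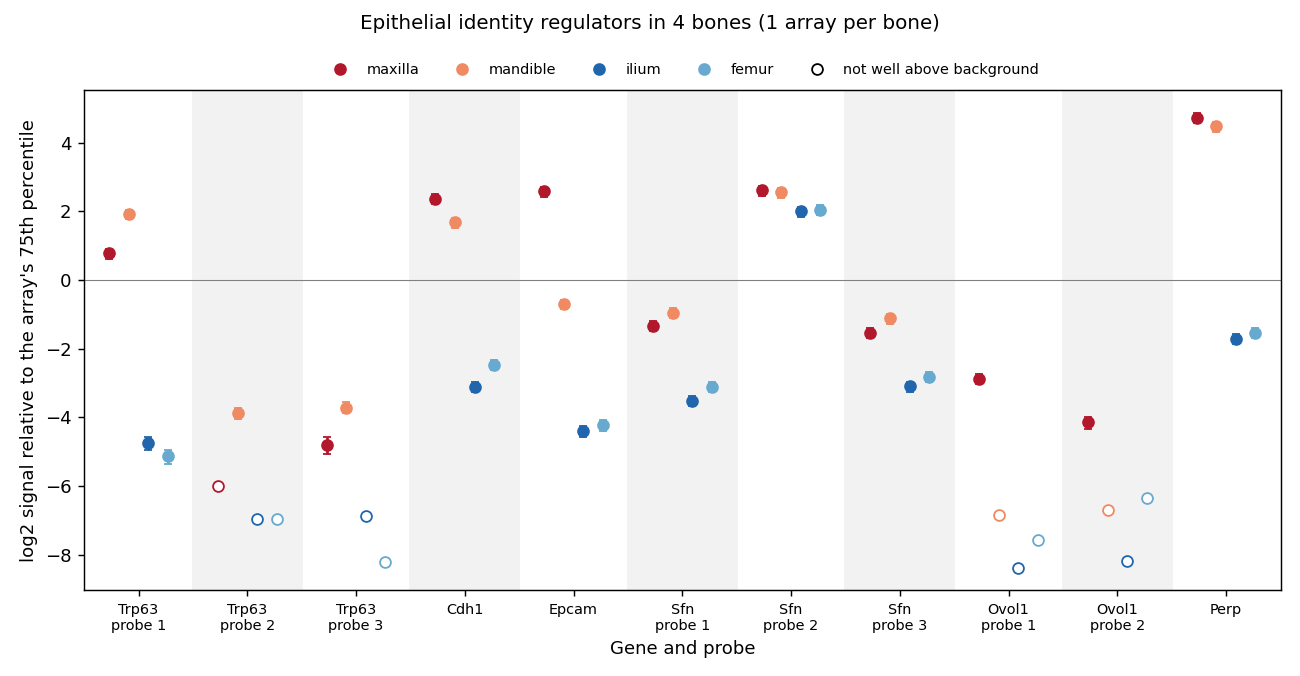
Level of each member probe in the maxilla, mandible, ilium and femur (log2 of the processed signal relative to the array's 75th percentile; 1 array per bone). Bars are the scanner program's error of the signal, open circles are values not well above background, and levels are to be compared within a probe only. Perp, Cdh1 and the first Trp63 probe show both jaw bones far above both other bones, and Ovol1 is filled in the maxilla only.

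Trp63 was read by 3 probes. The first had values of 0.78 in the maxilla and 1.92 in the mandible, against -4.76 in the ilium and -5.14 in the femur. Both jaw bones were high and both other bones low, with no overlap, and this probe was well above background in all 4 bones. The difference was 6.30 ± 0.48 (log2, SE, 2 bones per class), a 78.8-fold change, with an adjusted p of 0.0325 by limma, the smallest value reached in that fit. The other Trp63 probes were dim. The third had -4.80 in the maxilla and -3.72 in the mandible, with neither the ilium nor the femur well above background, a change of at least 4.72-fold that a fit over all probes left uncalled (3.30 ± 0.65, adjusted p 0.054). The second was well above background in the mandible alone, at -3.88. With the mean of all probes as the value of the gene, the Trp63 difference was 3.87 and was still called (adjusted p 0.043). The mandible lay above the maxilla on each of the 3 probes.

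Ovol1, a zinc finger factor of epidermis and hair follicle, also gave its only clear signal in a jaw bone. Its first probe stood at -2.87 in the maxilla, and the mandible, ilium and femur were not well above background. Its second probe stood at -4.15 in the maxilla, again with the other 3 bones not well above background. The maxilla exceeded the mandible by at least 11.5-fold on the first probe and at least 4.77-fold on the second. With normexp background correction these measured differences were 1.74 and 0.95 on the log2 scale, both under 4-fold.

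Cdh1, the E-cadherin of adherens junctions, had values of 2.36 in the maxilla and 1.68 in the mandible, against -3.11 in the ilium and -2.47 in the femur. The SD over its 10 spots was 0.072, 0.145, 0.135 and 0.076 on the log2 scale in the same order of bones. The jaw bones were 4.81 ± 0.39 higher (log2, SE), or 28.1-fold, with an adjusted p of 0.0325 by limma. The order ran from maxilla to mandible to femur to ilium, and every step exceeded 2 errors of the gap, as computed from the program's signal errors.

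Epcam, an adhesion molecule of simple and glandular epithelia, had 2.59 in the maxilla and -0.71 in the mandible, against -4.40 in the ilium and -4.23 in the femur. The mandible lay 3.52 above the femur, so the classes did not overlap, but it lay 3.29 below the maxilla. The difference between the classes was 5.25 ± 1.22 (log2, SE), with an adjusted p of 0.0733 by limma. With the maxilla left out it was 3.61, and with the mandible left out 6.90. In those fits the jaw bone left was assumed to vary like the other bones, so no call is read from them.

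Perp, a p53 and p63 target that sits in desmosomes of stratified epithelia, had the smallest error of the called members. Its values were 4.73 in the maxilla and 4.48 in the mandible, against -1.72 in the ilium and -1.54 in the femur. Both jaw bones were thus about as high as each other and both other bones about as low. The difference was 6.23 ± 0.22 (log2, SE), or 75.2-fold, with an adjusted p of 0.0325 by limma.

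Sfn (14-3-3 sigma) is a phosphoserine-binding protein of stratified epithelia, and its 3 probes did not give 1 answer. The second probe, the one with the highest mean, had 2.62 in the maxilla and 2.55 in the mandible, against 2.00 in the ilium and 2.06 in the femur. That is a difference of 0.56 ± 0.19 (log2, SE; adjusted p 0.14 by limma), and it did not pass. The third probe had -1.55 in the maxilla and -1.12 in the mandible, against -3.10 in the ilium and -2.83 in the femur. It was called in the fit over all probes (1.63 ± 0.26, adjusted p 0.0412 by limma), where 4.93% of 31114 probes were called higher in the jaw. The first probe, of uncertain assignment, had -1.34 in the maxilla and -0.96 in the mandible, against -3.52 in the ilium and -3.11 in the femur, and was called as well (2.17 ± 0.27, adjusted p 0.0318). All 3 probes had both jaw bones above both other bones, by 1.47-fold on the second, 3.09-fold on the third and 4.49-fold on the first. With the mean of the 3 probes Sfn was called (1.45, adjusted p 0.0428 by limma). That mean includes the first probe, of uncertain assignment, which had the largest difference of the 3.

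The calls rest on having both trunk and limb bones. Without the ilium the adjusted p of Trp63, Perp and Cdh1 was 0.235, and without the femur it was 0.356, while their differences stayed between 4.49 and 6.49. In each of these fits 0 genes of the whole array were called by limma, while 3550 genes without the ilium and 2628 without the femur had an unadjusted p under 0.05. Replicates of a bone were not measured, so the p-values rest on the spread between bones of the same class and not between animals.

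Among the measured members, promoter sequence was at hand for Epcam and Sfn only, and both are shown for that reason. The Grhl3 promoter was also at hand and is not shown, since Grhl3 was not measured here. The windows run from 250 bases before the gene's start to 50 after it, from RefSeq on GRCm38.p6, with motifs in capitals. The motifs searched on both strands were ACCGGT, the core that Grainyhead-like factors bind, and CACCTG, the E-box through which Snail and Zeb repressors act on Cdh1, printed as CAGGTG where it lies on the other strand. Epcam is at chr17:87635729-87636028 on the plus strand and Sfn at chr4:133602119-133602418 on the minus strand.
Epcam: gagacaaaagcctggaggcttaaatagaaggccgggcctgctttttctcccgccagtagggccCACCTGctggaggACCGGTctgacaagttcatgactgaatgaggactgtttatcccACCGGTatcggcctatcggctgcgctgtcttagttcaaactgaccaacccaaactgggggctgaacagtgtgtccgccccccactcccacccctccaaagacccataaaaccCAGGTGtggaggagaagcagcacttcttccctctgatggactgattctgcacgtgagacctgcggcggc
Sfn: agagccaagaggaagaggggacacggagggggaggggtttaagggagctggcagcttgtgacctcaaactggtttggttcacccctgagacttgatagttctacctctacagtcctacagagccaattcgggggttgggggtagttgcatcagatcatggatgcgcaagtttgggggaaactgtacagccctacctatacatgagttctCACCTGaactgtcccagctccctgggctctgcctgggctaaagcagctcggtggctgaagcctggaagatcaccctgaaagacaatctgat
In the Epcam window ACCGGT lay 174 and 131 bases before the start, and the E-box lay 187 and 19 bases before it. In the Sfn window ACCGGT had 0 matches, and the E-box lay 41 bases before the start. Of 32851 promoters of the same length, 2.33% held ACCGGT and 20.2% held CACCTG on either strand. A match in these letters is a description of the sequence only.

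The maxilla and the mandible were not alike in these genes, though with 1 array each there is no test. Epcam was 9.79-fold higher in the maxilla, and Ovol1 was also past 4-fold there, which 8.95% of 21084 genes were. Trp63 lay the other way, 2.20-fold higher in the mandible, and 0 members were 4-fold higher there, where 2.5% of genes were. Cdh1 was 0.67 higher in the maxilla on the log2 scale. Perp differed by 0.25 and Sfn, on its second probe, by 0.06, each less than 2 errors of the gap. The other Sfn probes lay the other way, the third by -0.43 (maxilla minus mandible, past 2 errors) and the first by -0.38 (within 2 errors). Under median centring the differences of Perp and of the second Sfn probe became -0.01 and -0.19. The ilium and femur differed by -0.64 to 0.38 in the 5 members measured there (log2, ilium minus femur), with 0 past 4-fold, as against 0.986% of 20894 genes.

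Of the other regulators of epithelial identity, 5 were called higher in the jaw, and 3 of those 5 entered the test only because they were bright there. Of 15 with a value, 13 were tested, and 0 were called lower, with a median difference of 3.66 on the log2 scale against -0.03 over all genes tested. Esrp1, Tfap2c and Zfp750 were the 3 that passed the filter through the jaw bones alone. Esrp1 and Esrp2, the epithelial splicing regulators, were higher by at least 32.5-fold and by 48.2-fold, with Esrp2 not well above background in the ilium. Tfap2c and Zfp750, factors of epidermal differentiation, were higher by at least 34.8-fold and at least 30.2-fold. With normexp 2 of the 13 were called, with Esrp1, Tfap2c and Zfp750 lost. With the filter on all 4 arrays 1 of 9 was called, and the median difference was 2.28. Quantile scaling also left Tfap2c just short (adjusted p 0.0511). In this list 8 of 15 genes stood 4-fold above the mandible in the maxilla and 0 the other way, with a median of 2.04. Elf5 and Elf3, Ets factors of glandular and lining epithelium named after their values were seen, were well above background in the maxilla alone, at least 773-fold and at least 132-fold above the mandible.

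**Figure D2:**
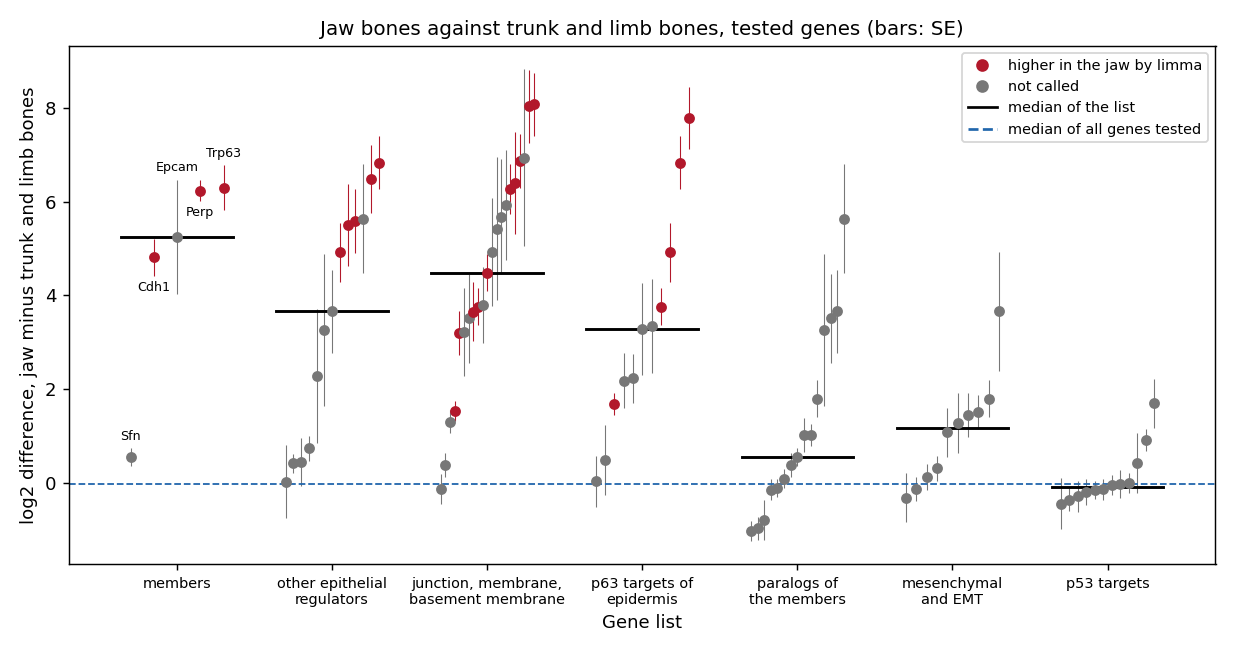
Log2 difference of jaw minus trunk and limb bones for the tested genes of 7 lists (points, with SE bars), the median of each list (black lines) and the median of all genes tested (dashed line, -0.03). The medians are 5.25 for the members, 3.66 for other epithelial regulators and 4.49 for junction, membrane and basement membrane genes, against -0.09 for p53 targets. The medians of 3.66 and 4.49 include 3 and 4 genes that passed the filter through the jaw bones alone. With the filter on all 4 arrays they were 2.28 and 3.80.

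Genes of epithelial junctions, membranes and the basement membrane were likewise higher where they passed. Of 22 junction, membrane and basement membrane genes, 21 were tested, 4 of them through the jaw bones alone, and 10 were called higher and 0 lower (median 4.49). Spint1, an inhibitor of epithelial membrane proteases, was 8.08 ± 0.67 higher on the log2 scale, with the femur not well above background. Col17a1, the collagen of hemidesmosomes, had 0.96 in the maxilla and 3.02 in the mandible, against -5.89 in the ilium and -6.18 in the femur (8.03 ± 0.78, adjusted p 0.0325). Pkp1, a plakophilin of desmosomes, was 117-fold higher. With the mean of all probes 7 genes of the list were called, without Col17a1 (adjusted p 0.0514), and with no filter on background 6. The median was 3.80 with the filter on all 4 arrays. Between the jaw bones this list was split, with 7 genes 4-fold higher in the maxilla and 4 in the mandible. The 4 included Lamb3, Col17a1 and Cdh3, and the 7 included Prss8, Marveld3 and Crb3, of which Marveld3 and Crb3 belong to the tight junction and apical domain. Lamb3, Cdh3, Prss8, Marveld3 and Crb3 were named after their values were seen.

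**Figure D3:**
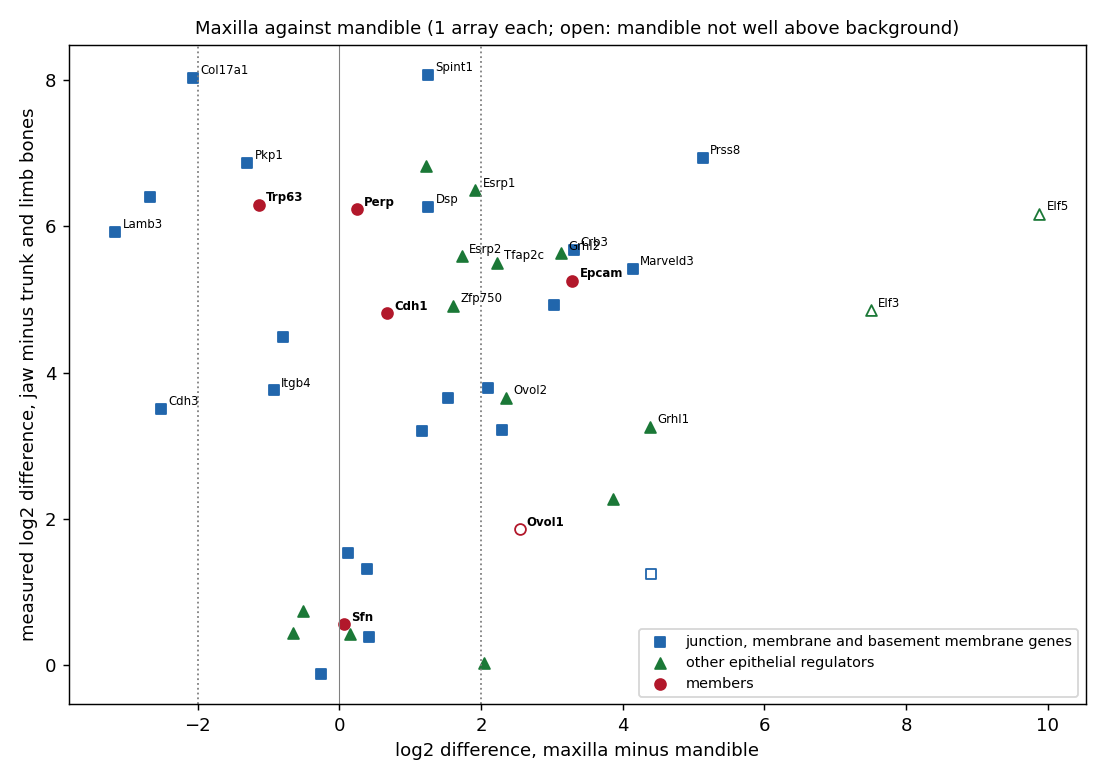
Maxilla minus mandible (horizontal axis, log2) against the measured difference of jaw minus trunk and limb bones (vertical axis, log2) for members, other epithelial regulators and junction genes; dotted lines mark 4-fold and open symbols a mandible value not well above background, and only genes named in the text are labelled. Epcam lies at 3.29 to the right, Trp63 at -1.14 to the left, and Perp and Sfn near 0.

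Genes reported as targets of p63 in epidermis numbered 11, all tested, and 5 were called higher in the jaw and 0 lower (median 3.28). Krt14, Zfp750, Itgb4 and Fgfr2 were among them, with Fgfr2 named after its values were seen. Zfp750 passed the filter through the jaw bones alone, and its call was lost with normexp (adjusted p 0.0575). The median of the list was 2.75 with the filter on all 4 arrays. Krt14, the basal keratin, had 2.94 in the maxilla and 4.67 in the mandible, against -4.05 in the ilium and -3.91 in the femur (7.78 ± 0.66, adjusted p 0.0325). Itgb4, the integrin of hemidesmosomes, was 13.6-fold higher. Fgfr2, a receptor of epithelial growth signals, was 3.22-fold higher, a call lost in 4 of the 9 settings that kept all 4 bones: median centring (1.44, adjusted p 0.0547), the series table (adjusted p 0.0568), no filter on background (0.0561) and the mean of its probes (0.0518). The median of this list between the jaw bones was -1.32, and 2 genes were 4-fold higher in the mandible and 0 in the maxilla. Of 12 targets of p53, the relative of p63, 0 were called by limma and 2 had an unadjusted p under 0.05, with a median of -0.09. Over all genes tested, 7082 of 20616 had an unadjusted p under 0.05 in this fit. Cdkn1a, the cell cycle inhibitor p21, had the widest difference of these, 1.70 ± 0.52 with an adjusted p of 0.115.

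Of 15 paralogs of the members tested, 0 were called by limma in either direction and 8 had an unadjusted p under 0.05 (median 0.56). Among all genes tested, 7082 of 20616 had such a p. Grhl2 had 1.44 in the maxilla and -1.68 in the mandible, against -5.61 in the ilium and -5.90 in the femur; the difference was 5.63 ± 1.16 with an adjusted p of 0.0618. It was called in the series table (5.38, adjusted p 0.0498), and with the mean of its probes the difference was 3.21 (adjusted p 0.134). Grhl1 and Ovol2 differed by 3.26 ± 1.62 and 3.66 ± 0.88, and the P-cadherin gene Cdh3 by 3.51 ± 0.96. For Grhl1, Grhl2 and Ovol2 the maxilla exceeded the mandible by 4.39, 3.13 and 2.35 on the log2 scale. Mesenchymal and EMT genes, which the Ovol and Grainyhead-like factors are known to oppose, gave 0 limma calls of 10 tested, with 4 at an unadjusted p under 0.05 and a median of 1.18. Of these, Twist2 differed most, by 3.67 ± 1.27 (adjusted p 0.142), and Cdh2 (N-cadherin) differed by 1.80 ± 0.39 (adjusted p 0.0679). All 10 were lower in the maxilla than in the mandible, as were 11322 of 21084 genes well above background in a jaw bone. With 1 array per bone there is no test of this, and a link to the Ovol or Grainyhead-like factors was not tested.

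The genes whose pattern over the 4 bones was most like a member's, by Euclidean distance of centred log2 values among 20616 tested genes, included Pkp1, Dsp, Smr3a and Ywhaq from the lists used here. Aplp1 (distance 0.449), Plppr1 (0.641) and the desmosomal Pkp1 (0.645) were nearest to Trp63. Trim29 (0.600), Sox11 (0.691) and the desmoplakin gene Dsp (0.758) were nearest to Perp. Rassf10, Myo5b and Nrn1l were nearest to Cdh1, at 0.154 to 0.308. Cfap69, Ces1c and Smr3a were nearest to Epcam, at 0.323 to 0.388. Synj2bp, C530030K21Rik and Ywhaq, a 14-3-3 gene itself, were nearest to Sfn, at 0.00716 to 0.0309. The nearest to Ovol1 were 5031410I06Rik, 4932416K20Rik and Cyp2c65, at 0.270 to 0.435. Ovol1 was well above background in 1 bone, 5031410I06Rik and 4932416K20Rik in 2 and Cyp2c65 in 3, so these distances rest largely on values near background. Plppr1, Rassf10, Ces1c, Smr3a, Trim29 and Sox11 were well above background in 2 bones only.

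Jaw minus trunk and limb differences were positive in 7 of 8 keratinocyte markers and 7 of 7 ameloblast markers tested. The part of epithelial cell types in the results was not tested. A list's summed level is the sum of its genes' signals over the 75th percentile. For keratinocyte markers it was 62.8 in the maxilla and 94.6 in the mandible, against 1.02 in the ilium and 0.977 in the femur. Of 8 keratinocyte markers tested 6 were called higher, Krt15 by at least 733-fold after passing the filter through the jaw bones alone. Krt1 lay the other way and was not called (-0.85 ± 0.79, adjusted p 0.498 by limma). Krt4 and Dsg3 were well above background in the maxilla alone and Dsc3 in no bone. Krt1, Krt4, Dsg3 and Dsc3 were named after their values were seen. Ameloblast markers summed to 85.5 in the maxilla and 211 in the mandible, against 0.311 in the ilium and 0.189 in the femur. Of these 7 genes 4 were called higher, 4 passed the filter through the jaw bones alone, and Enam, an enamel matrix gene, was higher by at least 359.9-fold.

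Markers of nasal, salivary and olfactory tissue had their highest sums in the maxilla. Nasal and airway markers summed to 486 in the maxilla and 0.507 in the mandible, against 0.499 in the ilium and 0.197 in the femur. The maxilla sum is mostly Bpifa1, Reg3g and Cyp2a5, at 7.33, 7.23 and 7.18. In the maxilla 6 of 7 stood 4-fold or more above the mandible. The exception was Scgb1a1, named after its values were seen. It stood at -4.49 in the maxilla and -4.66 in the mandible, against -4.62 in the ilium and -3.06 in the femur. Salivary gland markers summed to 82.2 in the maxilla and 4.18 in the mandible, against 2.97 in the ilium and 2.34 in the femur. Outside the maxilla those sums are mostly Amy1, named after its values were seen. It stood at 1.27 in the maxilla and 1.94 in the mandible, against 1.42 in the ilium and 1.00 in the femur. Olfactory neuron markers summed to 4.31 in the maxilla, with 0.247 to 0.456 in the other 3 bones. Erythroid genes ran the other way: 6 of 7 were called lower in the jaw, and they summed to 345 in the maxilla and 350.1 in the mandible, against 593 in the ilium and 623 in the femur. Those sums are mostly the globin gene Hba-a1, named after its values were seen and the 1 of the 7 not called, which stood at 8.30 in the maxilla and 8.25 in the mandible, against 8.45 in the ilium and 8.47 in the femur. Osteoblast genes gave 0 limma calls of 8, with 3 at an unadjusted p under 0.05, and summed to 399 in the maxilla and 415 in the mandible, against 315 in the ilium and 266 in the femur. Skeletal muscle genes gave 0 of 4, with 0 at an unadjusted p under 0.05, and summed to 53.9 in the maxilla and 314 in the mandible, against 504 in the ilium and 501 in the femur. The median difference of these muscle genes was -1.96, with -3.29 when the mandible was left out and -0.73 when the maxilla was. Nasal, salivary and olfactory markers also gave 0 limma calls, with 0 of 6, 1 of 5 and 0 of 4 tested at an unadjusted p under 0.05. Among all genes tested that count was 7082 of 20616. Median differences of nasal, salivary and olfactory markers were 10.65, 7.20 and 3.50 without the mandible, and 1.49, 1.70 and 0.33 without the maxilla. For osteoblast genes the median was 0.76 without the mandible and 1.10 without the maxilla.

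**Figure D4:**
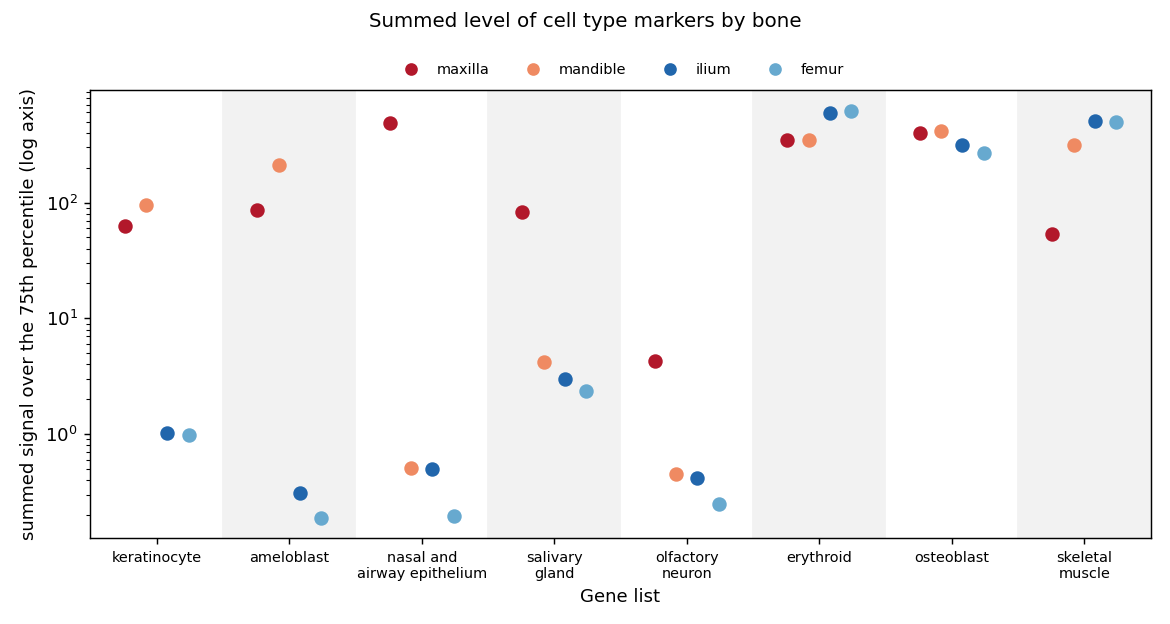
Summed signal over the 75th percentile (log axis) of 8 lists of cell type markers in the maxilla, mandible, ilium and femur, 1 array each. Keratinocyte markers sum to 62.8 and 94.6 in the maxilla and mandible, against 1.02 and 0.977 in the ilium and femur. Nasal markers sum to 486 in the maxilla and 0.507 in the mandible, against 0.499 and 0.197 in the ilium and femur.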

How the data were processed

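Agilent whole mouse genome arrays measured 1 RNA sample per bone in 1 colour. The deposited files hold linear spot intensity values from Agilent Feature Extraction 9.5.3.1, background-subtracted and spatially detrended, per the file headers and the submitters' processing notes. The deposited series table holds log2 values from GeneSpring, per the series description, each the ratio to the ilium minus a constant, within a tolerance of 0.001 for 99.8% to 100% of 41168 probes per bone. It was used as an alternative only.

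Processed signals were put on the log2 scale and scaled to the 75th percentile of each array. Outlying spots were left out one by one and spots of a probe averaged. A gene was read from its probe with the highest mean, and probes were named through RefSeq gene names of GRCm38.p6 for 33102 of 41174 probes. A gene entered the test when at least 2 arrays had it well above background. The contrast was fitted with limma 3.58.1 in R 4.3.3 (lmFit, eBayes), with the bone as the unit, 2 residual degrees of freedom and a prior of 1.76. The script was tested on simulated data. Between single bones the rule of size was 4-fold with the brighter bone well above background. Folds given as "at least" set the dim bones at the higher of their own value and the lowest signal well above background on the array.

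Named genes were the members, up to 4 of each list by call and then size, and the 3 nearest to each member; others are said to be named after their values were seen, and some results are not reported here. The members and lists were chosen with earlier results of these data known. Tried instead were normexp, quantile scaling, median centring, the series table, other filters, other uses of outlying spots, the mean of a gene's probes, and leaving out each bone. All arrays lay on 1 slide with 1 scan time, so the place on the slide and the bone cannot be told apart.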

Additional observations from a re-analysis of the deposited data

How the results depend on the processing

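Across the 9 settings that kept all 4 bones, Trp63, Perp and Cdh1 stayed called, with differences of 3.87 to 6.30, 5.98 to 6.28 and 4.34 to 4.81, and Epcam stayed uncalled. Sfn was called only with the mean of its probes, which includes the probe of uncertain assignment. Genes called higher in the jaw numbered 929, against 600 with quantile scaling, 603 with median centring, 575 in the series table and 396 with no filter on background. Genes called lower numbered 1494, against 724 with no filter, where 2423 calls in all became 1120. The share of calls that were higher was 38.3%, but 26.8% with median centring and 27.2% in the series table, which move the median of all genes from -0.03 to -0.28. Genes whose classes lay at least 2-fold apart numbered 1925 higher and 2024 lower in the jaw, against 1204 and 1437 with normexp and 1441 and 2604 with median centring. Leaving out 1 bone gave 0 to 8204 calls, of which 0 to 4045 were higher and 0 to 4159 lower: 0 without the ilium or the femur, 6166 without the maxilla and 8204 without the mandible. Genes 4-fold higher in the maxilla than the mandible numbered 1886, against 1029 with normexp and 839 with the filter on all 4 arrays; those higher in the mandible numbered 527, against 262 with normexp. Ilium over femur gave 143 genes, 33 with normexp and 50 with that filter, and femur over ilium 63, 2 and 8. Without the maxilla the median difference was 2.48 in other epithelial regulators, 4.02 in junction genes, 4.11 in p63 targets and 0.51 in paralogs. Without the mandible these medians were 5.45, 4.42, 1.99 and 0.62. In p53 targets the median was 0.04 without the maxilla and -0.10 without the mandible, and in mesenchymal genes 1.53 and 0.74. The cause of these changes was not tested. No paired analysis was possible because the bones carry no replicate numbers. Signals near background limit the dim Trp63 and Ovol1 probes.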
